A study of Mus musculus with 3 samples.

Results

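The cells described here were 940 cells of mouse dorsal skin that carried RNA of at least 3 of 5 pigment cell genes, out of 26847 cells kept from 3 single-cell RNA libraries. The 5 genes were *Dct* and *Tyrp1*, enzymes of melanin synthesis, *Tyr*, the enzyme that starts it, *Pmel*, which forms the fibrils that melanin is laid on, and *Mlana*, a melanosome membrane protein. RNA was counted as unique molecular identifiers (UMIs), each of which stands for 1 captured RNA molecule. A barcode was kept as a cell with mitochondrial UMIs of at most 10% and at least 200 genes found. Members were chosen by these measured values: a kept cell was a member when it had a UMI in at least 3 of the 5 genes, no UMI of *Ptprc* (the leukocyte antigen CD45), and keratin (Krt) gene UMIs under 1% of its total.

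The Neg library came from vehicle control mice, AA from a mouse model of alopecia areata, an autoimmune hair loss, and AA+Ab from the same model given an antibody that neutralizes the chemokine CXCL12. The published study made the model by transferring lymph node cells of affected mice, and does not describe the AA+Ab samples. Each library was made from the pooled back skin of 7 to 8 female C3H/HeN mice aged 25 weeks, digested with collagenase D at 0.7 mg/mL. Each group had 1 library, so every interval covers counting error only, no difference between groups could be tested against variation between mice, and levels are given as UMIs per 1000000 UMIs (CPM) of the summed cells.

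The Neg library held 6965 barcodes with 121289374 UMIs, AA 10879 barcodes with 137290217 UMIs, and AA+Ab 10507 barcodes with 141998364 UMIs. Of these, 6582, 10433 and 9832 barcodes were kept in Neg, AA and AA+Ab, the order used for all sets of 3 values, with median depths of 13694.5, 11177 and 11371 UMIs. Members made up 406 kept cells of Neg, 127 of AA and 407 of AA+Ab. Their shares were 6.17% (95% exact binomial interval 5.60 to 6.78%), 1.22% (1.02 to 1.45%) and 4.14% (3.75 to 4.55%). Between 17 and 28 barcodes were found in both libraries of a pair, and 1 barcode was a member in both AA+Ab and Neg.

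Melanocytes make melanin in organelles called melanosomes and pass them to keratinocytes through long processes. In mouse back skin most of them sit in hair follicles, where they differentiate from stem cells of the bulge and divide as the hair grows. Pigment cell proteins are among the antigens studied in alopecia areata, in which T cells attack growing follicles.

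The 940 members were not a uniform set of melanocytes. After the data had been seen, they were divided by the share of a cell's UMIs taken by the 5 selection genes (1%) and by depth (5000 UMIs). Cells past both limits, here called marker-rich, numbered 26, 18 and 42, or 0.395% (0.258 to 0.578%), 0.173% (0.102 to 0.273%) and 0.427% (0.308 to 0.577%) of kept cells. Shallow marker-rich cells, with fewer UMIs, numbered 66, 13 and 51. Marker-poor cells, with a share under 1%, numbered 314, 96 and 314 and so were most of the members in each library.

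Most of the pigment RNA of the members lay in the marker-rich cells. They held 9.87%, 22.6% and 15.9% of the members' UMIs but 67.6%, 83.8% and 77.3% of the members' UMIs of a list of 24 other pigment genes. The selection genes took a median of 3.75%, 4.16% and 3.72% of their UMIs, against 0.0248%, 0.0287% and 0.0285% in marker-poor cells, as the plot of depth against marker share shows. Few cells lay near the limits. Among members with at least 5000 UMIs, 1, 2 and 4 cells had a share from 0.5 to 1% and 5, 1 and 5 from 1 to 2%. In this depth range the highest share of a marker-poor cell was 0.553%, 0.727% and 0.745%, and the lowest of a marker-rich cell 1.14%, 1.53% and 1.26%. Over all depths the highest share of a marker-poor cell was 0.965%, 0.850% and 0.851%. The lowest depth of a marker-rich cell was 6756, 5435 and 6082 UMIs, and the highest of a shallow one 3424, 3547 and 4303.

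**Figure D1:**
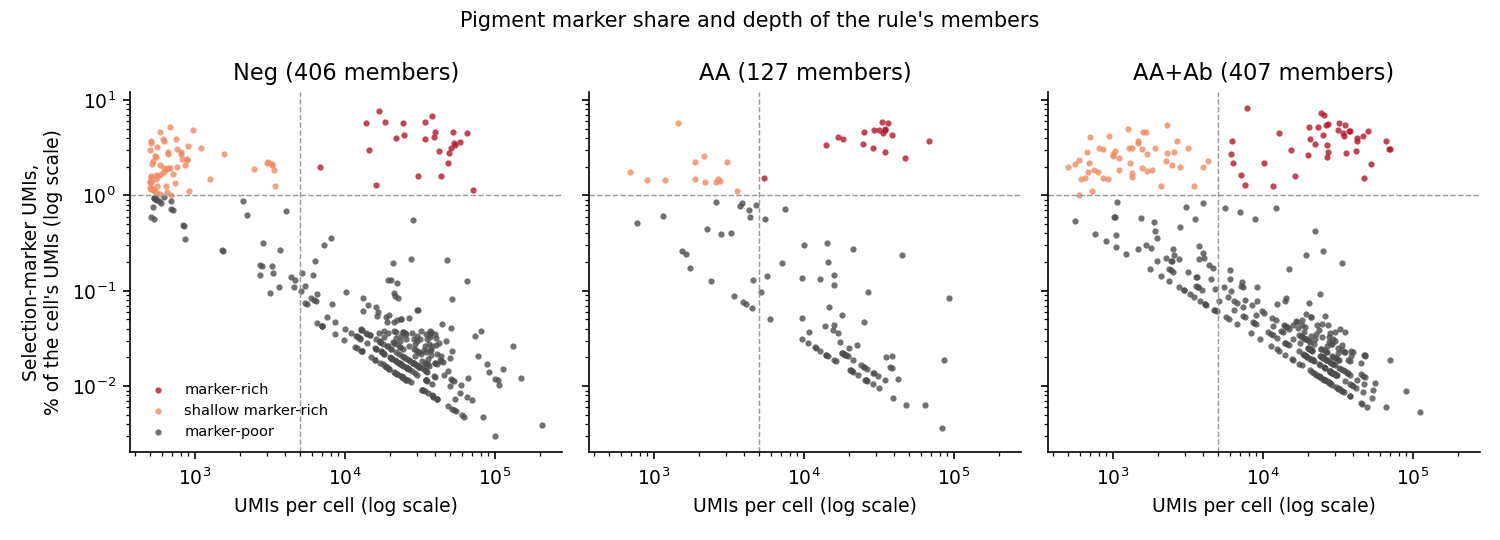
UMIs per cell (log axis) against the selection genes' percent of those UMIs (log axis) for the members of each library, coloured by marker-rich, shallow marker-rich and marker-poor cells, with dashed lines at 1% and 5000 UMIs. Marker-rich cells number 26 in Neg, 18 in AA and 42 in AA+Ab, and the median share of the marker-poor cells lies under 0.03% in each library.

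Genes outside the selection were found in greater number as the marker share rose. Of 10 further pigment lineage genes (*Mitf*, *Sox10*, *Slc45a2*, *Oca2*, *Gpr143*, *Slc24a5*, *Trpm1*, *Kit*, *Ednrb* and *Mc1r*), at least 8 were found in 25 of 26, 17 of 18 and 41 of 42 marker-rich cells. The same was true of 1, 1 and 0 marker-poor cells, in which the median was 1 gene, while 65, 18 and 45 marker-poor cells had at least 3. Among members with at least 5000 UMIs the change was gradual, with a median of 6, 4 and 5.5 genes at a share from 0.5 to 1% and 8, 6 and 9 at 1 to 2%. Members found with exactly 3 selection genes numbered 220, 79 and 228, had a median of 5, 4 and 4 selection gene UMIs and a median of 1 of the 10 further genes. Cells just outside the rule, with 2 selection genes, numbered 437, 344 and 655 and also had a median of 1 of the 10. As a set, marker-poor cells did carry some lineage RNA above the cells outside the rule. *Sox10*, with only 20, 15 and 29 UMIs, stood at 2.29, 8.05 and 4.52 CPM against 0.777, 0.338 and 0.424. In AA *Pax3*, another lineage factor, stood at 84.8 against 1.502 CPM, and was picked as the gene furthest above those cells. Cell by cell, the label melanocytes was borne out for the marker-rich cells and not for most marker-poor ones.

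Pigment RNA was also found in leukocyte-marked cells, where *Dct* was found about as often as in the other cells outside the rule. In kept cells with a *Ptprc* UMI, 437, 704 and 713 cells with median depths of 5984, 4742.5 and 4461 UMIs, a *Dct* UMI was found in 42.1%, 20.2% and 36.9%, beside 41.8%, 22.01% and 37.8% of all kept cells outside the rule, whose median depths were 13503.5, 11157 and 11303 UMIs. In the *Ptprc* cells the selection genes together stood at 700.7, 306.1 and 276.7 CPM. Of the *Ptprc* cells, 3, 1 and 1 had a share of at least 1% and held 2556 of 3657, 1214 of 1666 and 583 of 1711 of their selection gene UMIs. Without these cells the *Ptprc* cells stood at 215.1, 83.3 and 183 CPM, with a *Dct* UMI in 41.7%, 20.1% and 36.8%. All kept cells outside the rule stood at 149.6, 75.5 and 127.8 CPM, still with cells of a share of up to 4.70%, 6.53% and 2.98%. At least 3 of the 5 genes were found in 16.5%, 1.28% and 10.7% of all *Ptprc* cells, beside 16.7%, 2.52% and 12.2% of all kept cells. The share was 11.2%, 1.32% and 8.40% in the cells outside the rule, which lack the members by construction.

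The depth of a cell also bore on membership. Among kept cells with at least 2000 UMIs, 6203, 10107 and 9422 cells, the rule gave 328, 116 and 350 members, or 5.29% (4.74 to 5.87%), 1.15% (0.949 to 1.38%) and 3.72% (3.34 to 4.12%). With these cells thinned to 2000 UMIs, 45, 37 and 88 met the rule, or 0.726% (0.530 to 0.970%), 0.366% (0.258 to 0.504%) and 0.934% (0.750 to 1.15%). In the same cells the members' share was thus lowest in AA both times, and highest in Neg before thinning and in AA+Ab after it.

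The marker-poor cells carried genes of several other skin cells. Their 12 keratinocyte genes without Krt names summed to 9099.9, 7229.7 and 7757.6 CPM, led by *Fabp5*, a fatty acid carrier, against 14063, 14571 and 14152 CPM in the cells outside the rule. Their 26 cell cycle genes summed to 10799, 7923 and 11434 CPM, above the 5329, 4367 and 5641 CPM of those cells, and their 20 hair shaft and inner root sheath genes to 1987, 1468 and 1674 CPM. *Aldh1a3*, which makes retinoic acid, stood at 148.9, 157.7 and 190.8 CPM against 42.2, 39.7 and 39.2 CPM outside the rule. *Kitl*, the ligand of the melanocyte receptor KIT, stood at 231.6, 431.4 and 333.5 CPM against 83.3, 115.3 and 139 CPM. Marker-poor cells thus carried more RNA of cycling cells and of *Kitl* than the other kept cells, and less keratinocyte RNA under a rule that leaves out keratin-rich cells. Among them, 32 of 314, 2 of 96 and 32 of 314 were among the barcodes with the highest Scrublet doublet scores. The source of the RNA was not tested.

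Skeletal muscle RNA in the members was carried to a large part by single cells. The 7 muscle genes, led by the actin gene *Acta1*, summed to 2909, 162.6 and 2643 CPM in marker-poor cells and to 34.3, 23.5 and 10.6 CPM in marker-rich cells. A single cell gave 49.0%, 73.5% and 88.2% of the members' *Acta1* UMIs. It was found in 199 of 406, 42 of 127 and 66 of 407 members, and without the highest cell it stood at 697.5, 20.05 and 147.6 CPM. The milk protein gene *Csn2* had 1368 UMIs in Neg members, 98.8% of them in 1 cell, and the lymphatic chemokine gene *Ccl21a* had 470 in AA+Ab members, all in 1 cell.

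Over all 940 members, pigment genes, genes of major histocompatibility complex (MHC) class I presentation and interferon response genes were higher in AA than in Neg, and muscle genes lower. Of 11629 genes compared, 7.92% were at least 2-fold higher and 3.53% at least 2-fold lower in AA than in Neg members. The pigment list was higher in 12 of 24, the MHC class I list in 8 of 19 and the interferon list in 9 of 22. The muscle list was lower in 5 of 5. Between AA+Ab and AA, 2.62% of genes were at least 2-fold higher and 7.76% at least 2-fold lower, with the MHC class I list lower in 7 of 19, the interferon list lower in 11 of 22 and the muscle list higher in 5 of 5. Between AA+Ab and Neg, 1.44% were higher and 2.04% lower, with the pigment list higher in 3 of 24. Marker-rich cells gave a larger share of the members' UMIs in AA than in Neg, and the pigment genes of the marker-rich cells alone moved by less than 2-fold with 1 exception, *Slc7a11*. The remaining comparisons are therefore of the 86 marker-rich cells.

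The marker-rich cells of all 3 libraries expressed further genes for making and storing melanin. Among the genes they were chosen by, *Dct* stood at 14992, 17344 and 13869.5 CPM, *Pmel* at 8211, 8797 and 9156 CPM, *Mlana* at 6848, 7720 and 8637 CPM and *Tyr* at 2239.6, 2660.0 and 2565 CPM. The other 24 pigment genes summed to 17062, 21025 and 19195 CPM, against 659.1, 677.9 and 723 CPM in the cells outside the rule. Their most abundant was *Cd63*, which sorts PMEL in the melanosome. *Trpm1*, a channel of the melanocyte membrane, stood at 3080, 4023 and 3156 CPM, *Slc24a5*, an ion exchanger of the melanosome, at 1975, 2317 and 2404 CPM, and *Oca2*, which sets melanosome pH, at 1652, 2566 and 2319 CPM.

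Genes for moving melanosomes and for lineage control were present as well. *Myo5a*, *Rab27a* and *Mlph* make the complex that carries melanosomes along actin, and stood at 956.6, 1352 and 871.1 CPM, 192.4, 231.3 and 165.3 CPM, and 186.1, 300.0 and 230.4 CPM. *Mitf*, the regulator of the lineage, stood at 476.2, 675.8 and 702.6 CPM, and *Sox10* at 130.0, 159.0 and 141.7 CPM. *Kit* and *Ednrb*, receptors for survival and migration signals, stood at 383.7, 491.5 and 511.3 CPM and at 936.8, 1045 and 887.4 CPM, and *Mc1r*, the melanocortin receptor, at 264.1, 381.3 and 355.0 CPM. The genes furthest above the other kept cells included *Oca2*, the synaptotagmin *Syt4*, the retinoic acid receptor *Rarb* and *Ptgds*, a prostaglandin D synthase at 11090, 13188 and 13142 CPM against 41.5, 22.98 and 47.4 CPM.

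Genes of vessels, leukocytes and red cells were low in the marker-rich cells. For leukocytes this was in part set by the rule, which left out cells with a *Ptprc* UMI. The 8 endothelial and pericyte genes summed to 5.20, 0 (95% upper bound 6.67) and 1.63 CPM, the 17 immune genes to 23.9, 21.7 and 15.5 CPM and the 5 red cell genes to 2.08, 1.81 and 0.814 CPM. *Cd3d* of T cells, *Adgre1* of macrophages, *Cdh5* of vessels, and *Col1a1*, *Lum* and *Pdgfra* of fibroblasts had no UMI in any of the 86 cells. Other genes of the lists were found: 6, 6 and 7 of the 17 immune genes and 3, 0 and 2 of the 8 endothelial and pericyte genes. Of the 10 fibroblast and papilla genes, 5, 4 and 6 were found, among them *Dcn* with 75, 4 and 12 UMIs. The 10 fibroblast and papilla genes summed to 416.9, 717.4 and 580.5 CPM, most of it *Sparc*, which melanocytes also express, and so stood above the 359.3, 495.7 and 422.5 CPM of the cells outside the rule. The 20 hair shaft and inner root sheath genes summed to 150.8, 28.9 and 27.7 CPM, and 120 of the 145 Neg UMIs lay in 3 cells, each with keratin UMIs of at least 0.1%. The keratinocyte genes summed to 2432, 2935 and 1693 CPM, led by *Fabp5*. This was the highest sum of the lists in this paragraph and was lowest in AA+Ab, and the source of the RNA was not tested.

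The comparison of AA with Neg asks how melanocytes differ in skin under autoimmune attack. The marker-rich cells of AA carried more RNA for MHC class I presentation and for interferon response than those of Neg, and less cell cycle RNA. Pigment genes were close to their Neg level, in cells chosen by their share of pigment RNA. The MHC class I list was 2.44-fold (2.31 to 2.58) higher in sum, the interferon list 2.44-fold (2.19 to 2.72) higher, and the cell cycle list at a ratio of 0.471 (0.442 to 0.502).

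Of 6079 genes compared in the marker-rich cells, 2.88% were at least 2-fold higher and 4.1% at least 2-fold lower in AA than in Neg. MHC class I genes, which present peptides to CD8 T cells, were at least 2-fold higher in 8 of 12 and at least 2-fold lower in 0, with a median log2 ratio of 1.62. The list summed to 2299, 5604 and 2429 CPM. *H2-K1*, a classical class I heavy chain, stood at 100.9, 654.1 and 109.9 CPM, a ratio of 6.49 (5.17 to 8.20) in AA over Neg. *H2-D1*, the other classical heavy chain, stood at 136.2, 840.3 and 223.9 CPM, a ratio of 6.17 (5.07 to 7.55). *B2m*, their shared light chain, was 3.18-fold higher (2.88 to 3.52). *Psmb8*, a subunit of the immunoproteasome that cuts peptides for class I, had 12, 85 and 8 UMIs, a ratio of 12.3 (6.69 to 24.8). Of the peptide transporter genes, *Tap1* had 8, 15 and 12 UMIs and *Tap2* 10, 23 and 13. *Calr* and *Pdia3*, which serve protein folding at large, were within 1.25-fold.

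Class I RNA varied between the cells of AA. By a level of 6000 CPM of the list, chosen after the values were seen, 0 of 26 Neg, 6 of 18 AA and 2 of 42 AA+Ab cells were high, and the 6 AA cells held 2070 of the 3101 AA UMIs of the list (66.8%). Per cell, the list had a median of 2248 CPM in Neg, 3796 in AA and 2126 in AA+Ab. Cells outside the rule stood at 3722, 4807 and 4077 CPM for the same list, and *Ptprc* cells at 3913, 5767 and 4386 CPM, so marker-rich cells were below both in Neg and in AA+Ab and between them in AA. With each marker-rich cell thinned to 5000 UMIs, an *H2-K1* UMI was found in 6 of 26 (23.1%, 8.97 to 43.65%), 11 of 18 (61.1%, 35.75 to 82.7%) and 14 of 42 (33.3%, 19.57 to 49.55%). The intervals overlapped. Unthinned, it was found in 18, 15 and 28 of these cells. In cells with keratin UMIs under 0.1%, 21, 14 and 36 of the marker-rich cells, the list stood at 2318, 5892 and 2309 CPM. In these cells *H2-K1* had 30 UMIs in Neg and 226 in AA, a ratio of 14.3. *Psmb8* had 2 and 66, so its ratio of 62.6 rested on 2 Neg UMIs. Of the thinned cells outside the rule, 81.9%, 88.4% and 82.6% had an *H2-K1* UMI.

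The interferon list, which holds receptor and kinase genes beside genes induced by interferon, was higher in AA in sum. It summed to 596.8, 1457 and 593.5 CPM and 5 of 12 compared members were at least 2-fold higher in AA than in Neg, with none at least 2-fold lower. *Bst2*, a restriction factor, stood at 57.2, 240.3 and 56.2 CPM, a ratio of 4.20 (3.05 to 5.86). *Gbp7*, a guanylate-binding protein, was 9.19-fold higher (4.04 to 24.4). The 6 AA cells high in class I RNA held 490 of the 806 AA UMIs of the list (60.8%). Cells outside the rule stood at 754.1, 1331 and 833.3 CPM for the list, a ratio of 1.77 in AA over Neg. *Cd274*, which encodes PD-L1, had 20, 22 and 17 UMIs, under the minimum of 60 for a ratio. The chemokine genes *Cxcl9*, with 0, 0 and 1 UMIs, and *Cxcl10*, with 1, 2 and 6, were too few to compare, and *Cxcl12* had 0, 10 and 5.

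**Figure D2:**
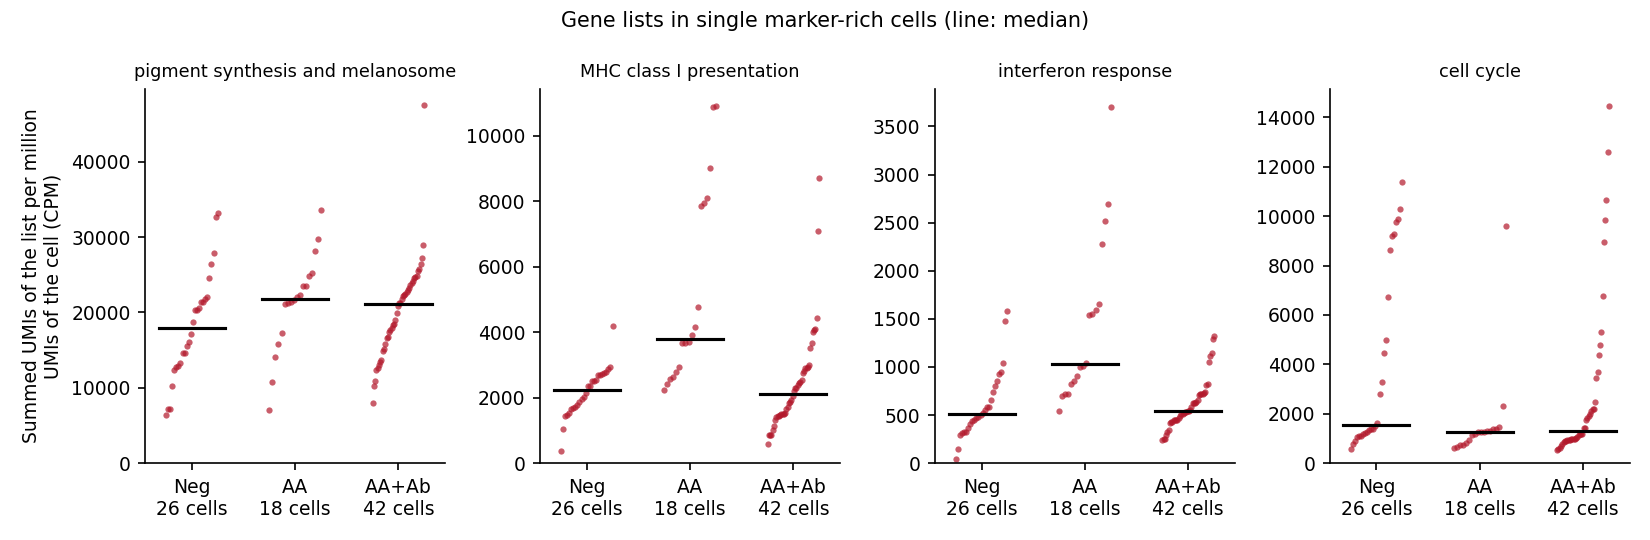
Summed CPM of the pigment, MHC class I, interferon and cell cycle lists in each marker-rich cell, by library, with 1 point per cell and a line at the median. The MHC class I median is 2248 in Neg, 3796 in AA and 2126 in AA+Ab, while the cell cycle medians of 1561, 1264 and 1298 lie close together and the highest cells reach 11390, 9593 and 14455.

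Cell cycle RNA was lower in AA, where few cells were high. The list summed to 4623, 2178 and 4163 CPM, with 14 of 23 members at least 2-fold lower in AA than in Neg and 0 at least 2-fold higher, and its sum in the cells outside the rule was 5329, 4367 and 5641 CPM. *Hmgb2*, a chromatin protein of dividing cells, stood at 424.2, 106.6 and 271.9 CPM, a ratio of 0.251 (0.188 to 0.331). *Pclaf*, a partner of PCNA, was at a ratio of 0.158 (0.0884 to 0.264), *Lig1*, a DNA ligase with 62, 2 and 62 UMIs, at 0.0561 (0.00664 to 0.211), and *Rrm2*, a subunit of ribonucleotide reductase with 65, 3 and 51 UMIs, at 0.0802 (0.0161 to 0.245). *Prim1*, a primase subunit with 35, 0 and 32 UMIs, was at least 6.71-fold lower in AA, with 3 counts as the floor.

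By a level of 2000 CPM of the cell cycle list, chosen after the values were seen, 12 of 26 Neg, 2 of 18 AA and 15 of 42 AA+Ab cells were high, and 2, 1 and 8 cells lay between 1500 and 2500 CPM. After thinning to 5000 UMIs, a UMI of *Mki67* or *Top2a*, which mark dividing cells, was found in 12 of 26 (46.2%, 26.6 to 66.6%), 3 of 18 (16.7%, 3.58 to 41.4%) and 11 of 42 (26.2%, 13.9 to 42.0%), and unthinned in 15, 9 and 20. The intervals of Neg and AA overlapped. The same share was 30.9%, 24.1% and 30.9% in thinned cells outside the rule. In AA, 1 cell with keratin UMIs at 0.853% gave 85 of 87 *Top2a* and 41 of 48 *Mki67* UMIs, and without each gene's highest cell per library the ratio of the list was 0.266. In cells with keratin UMIs under 0.1%, which leaves out the 3 Neg cells with most hair shaft RNA, it was 0.215. Both alternatives left out counts of the AA cell with most *Top2a*, among those of other cells. That cell was the highest of AA for the list, at 9593 CPM against 2323 for the next. The first alternative also kept the total UMIs of each library unchanged. The lower ratios thus follow in part from the choice of cells, and no more marked difference is read from them.

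In these cells, chosen by a selection gene share of at least 1%, the pigment list differed little in sum between AA and Neg. The list ratio was 1.23 (1.20 to 1.26). Per cell the list rose with the selection genes (Spearman correlation 0.83, 0.68 and 0.78). Cells with little pigment RNA were left out of every library, so the ratio cannot show a loss of pigment RNA in such cells. None of 21 pigment genes was at least 2-fold higher and 1 was at least 2-fold lower, where 2.88% of all 6079 genes were higher and 4.1% lower. The lower gene was *Slc7a11*, the cystine transporter that shifts melanin towards pheomelanin, with 71, 12 and 204 UMIs in 8, 5 and 16 cells. Its ratio was 0.294 (0.145 to 0.546). Over the alternatives run this ratio lay between 0.256 and 0.501, so it did not pass 2-fold under all of them. Transport genes were at a ratio of 1.44 (1.34 to 1.54), with *Sytl2*, a RAB27A partner, 2.10-fold higher (1.59 to 2.78). Of 16 transcription factor genes none passed 2-fold. The nearest were *Irf4*, which activates *Tyr*, at 1.94 (1.49 to 2.52) and *Pax3*, an early lineage factor, at 1.85 (1.61 to 2.13). Of 11 receptor genes none passed 2-fold. Beside the 2.88% higher and 4.1% lower of all genes, these counts do not set the lists apart from other genes. *Mt2*, a metallothionein, was at 0.449 (0.366 to 0.546), and *Mt1* stood at 2686, 1536 and 2407 CPM beside 5082, 2787 and 3825 CPM in the cells outside the rule.

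Several of the highest AA ratios came from 1 cell. *Krt16*, an epidermal stress keratin, had 2, 73 and 4 UMIs with 71 of the AA ones in 1 cell, which was also the cell with most *Top2a*. *Cald1* and *Slit3* had 53 of 58 and 53 of 62 AA UMIs in another cell, which also gave 126 of 153 *Krt17* UMIs and 28 of 32 of *Sox9* and had keratin UMIs at 0.827%. Both cells lay close under the Krt limit of the rule. *Dsp*, a desmosome gene, was 3.24-fold higher (2.33 to 4.53) with 97 of its 108 AA UMIs in 4 cells with keratin UMIs of at least 0.1%. Keratinocyte genes were higher in 3 of 9, with a list ratio of 1.21 (1.13 to 1.29) that was 0.997 in cells with keratin UMIs under 0.1% and 0.765 in those under 0.5%. *Slc22a23*, a solute carrier with 12, 42 and 18 UMIs, was 6.08-fold higher (3.14 to 12.7). In Neg, 66 of 75 UMIs of the fibroblast gene *Dcn* lay in 1 cell.

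The comparison of AA+Ab with AA asks how melanocytes of the model differ when CXCL12 is neutralized. The marker-rich cells of AA+Ab carried MHC class I and interferon RNA near the Neg level and below that of AA. They carried more cell cycle RNA than AA in sum, less immediate-early RNA, and more *Npy* and *Slc7a11*. The contrast shares the AA library with the comparison before it, so a library-wide peculiarity of AA would enter both.

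Of the 6079 genes, 3.95% were at least 2-fold higher and 4.52% at least 2-fold lower in AA+Ab than in AA. The MHC class I list was lower in 9 of 12 and higher in 0, with a sum ratio of 0.434 (0.412 to 0.456). *H2-K1* was at a ratio of 0.168 (0.137 to 0.205), *H2-D1* at 0.266 (0.229 to 0.310) and *Psmb8* at 0.0424 (0.0177 to 0.0874). The interferon list was at 0.408 (0.368 to 0.451), with 3 of 12 at least 2-fold lower, among them *Bst2* at 0.234 (0.172 to 0.315). *Irf4* was at 0.429 (0.331 to 0.555).

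The cell cycle list was 1.91-fold higher (1.80 to 2.04) in AA+Ab than in AA, with 13 of 23 members at least 2-fold higher and 0 lower. *Hmgb2* was 2.55-fold higher (1.93 to 3.42), *Pclaf* 4.39-fold (2.62 to 7.88) and *Lig1* 14.0-fold (3.71 to 117.9). Over the alternatives run these ratios lay between 1.08 and 3.9, 2.84 and 8.5, and 9.42 and 23.2. Of the 42 AA+Ab cells, 5 were among the barcodes with the highest Scrublet doublet scores, against 0 in Neg and AA, and without them the list ratio was 1.10. Without each gene's highest cell per library it was 3.44, and in cells with keratin UMIs under 0.1% it was 3.11. *Mki67* and *Top2a* were at 1.18 (0.842 to 1.69) and 1.09 (0.843 to 1.41). The excess of AA+Ab over AA thus depended on which few cells were counted.

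Immediate-early and heat shock genes, many of which respond to tissue digestion, were lower in sum in AA+Ab than in AA. The list summed to 8989.6 CPM in Neg, 8593 in AA and 5783 in AA+Ab, with a median cell at 5996, 8004.5 and 5244 CPM. Of its genes, 12 of 20 were at least 2-fold lower in AA+Ab than in AA and 0 of 20 were past 2-fold between AA and Neg. *Jun*, a subunit of the AP-1 factor, stood at 1136, 1348 and 505.6 CPM, and *Fos*, its partner, at 841.2, 708.4 and 351.7 CPM. *Atf3* stood at 451.2, 280.1 and 112.3 CPM. The list stood at 31141, 34744 and 31824 CPM in kept cells with keratin UMIs of at least 2%, so AA+Ab lay between the other libraries in those cells. It stood at 24486, 28025 and 24145 CPM in the cells outside the rule and at 15638, 16434 and 14459 CPM in marker-poor cells. In both of these sets it was lowest in AA+Ab. *Ddit3*, a factor of the unfolded protein response, was at 0.130 (0.0644 to 0.246) in AA+Ab over AA.

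Keratinocyte genes were lower in 6 of 9 in AA+Ab than in AA, at a list ratio of 0.577 (0.540 to 0.616). In cells with keratin UMIs under 0.5% the list ratio was 0.911. Over all marker-rich cells *Trp63*, a regulator of epidermal stem cells, was at 0.225 (0.159 to 0.316) and *Sfn* at 0.258 (0.208 to 0.319). *Fosl1*, an AP-1 subunit with 30, 37 and 3 UMIs, *Thbs1*, a matrix glycoprotein with 39, 41 and 6, and *Serpinb2*, a protease inhibitor with 161, 99 and 27, were among the lowest ratios. The AA cell with most *Top2a* gave 25, 26 and 71 of these 37, 41 and 99 AA UMIs. Without that cell the ratios of AA+Ab over AA were 0.0989 (0.0179 to 0.366), 0.158 (0.0503 to 0.432) and 0.381 (0.216 to 0.671).

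*Npy*, a neuropeptide, had the largest UMI difference among the genes named as higher in AA+Ab. It stood at 798.5, 641.5 and 2414 CPM, a ratio of 3.76 (3.37 to 4.21) over AA. The median cell stood at 271.8, 605.5 and 543.4 CPM and the highest at 9072, 1569 and 25856 CPM, so the excess lay in the upper cells and not in the median. With thinning to 5000 UMIs, *Npy* was found in 20 of 26, 13 of 18 and 33 of 42 marker-rich cells and unthinned in 24, 17 and 38, against 1.82%, 0.850% and 1.21% of thinned cells outside the rule, whose median depth before thinning was 14477.5, 12028.5 and 12446 UMIs. *Slc7a11* was 7.66-fold higher (4.29 to 15.1) in AA+Ab than in AA, with a ratio between 3.64 and 11.2 over the alternatives run. *Lmo2*, a transcriptional cofactor with 16, 5 and 81 UMIs, was 7.30-fold higher (3.002 to 23.1) and *Ntm*, a neural adhesion gene with 46, 11 and 143, stood at 47.8, 19.9 and 116.4 CPM.

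**Figure D3:**
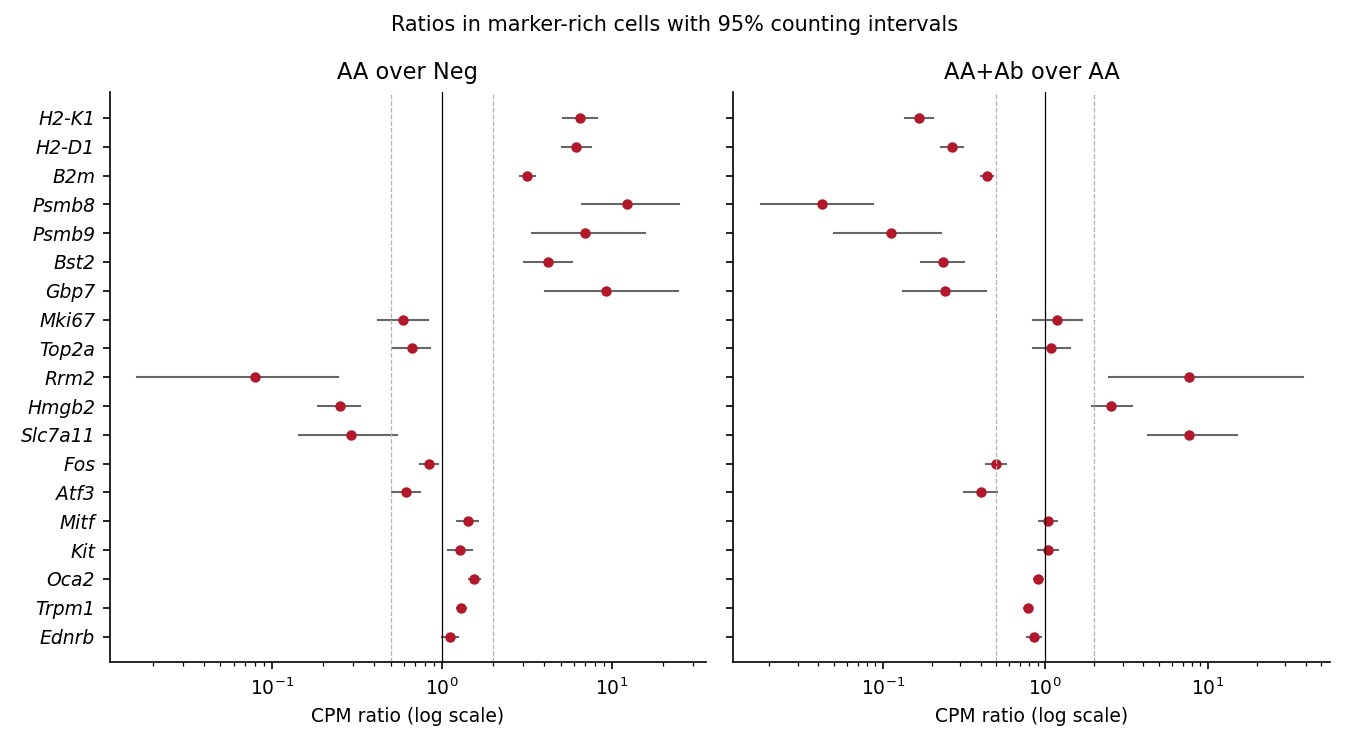
Ratios of summed CPM in marker-rich cells for named genes, AA over Neg and AA+Ab over AA, on a log axis with 95% counting intervals and a line at 1. *H2-K1* lies at 6.49 and 0.168 and *Psmb8* at 12.3 and 0.0424, while *Mki67* lies at 0.596 and 1.18.

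The comparison of AA+Ab with Neg shows how the treated model differed from the vehicle control, and shares a library with each of the comparisons before it. MHC class I and interferon RNA were near the Neg level in sum, as was pigment RNA in these cells chosen by pigment genes. Of the 6079 genes, 0.971% were at least 2-fold higher and 2.39% at least 2-fold lower. The MHC class I list was past 2-fold in 1 of 12 (lower), the interferon list in 1 of 12 (higher), the cell cycle list in 0 of 23 and the immediate-early list in 16 of 20 (lower). The list sums were at ratios of 1.06 for MHC class I, 0.994 for interferon, 0.901 for cell cycle and 0.643 for immediate-early genes. Without the 5 AA+Ab cells of highest Scrublet score the cell cycle ratio was 0.518. In cells with keratin UMIs under 0.1% the immediate-early ratio was 0.870, and that of *Fos* was 0.904 against 0.418 in all marker-rich cells. Single genes of the first 2 lists differed more, with *H2-D1* at 1.64 (1.33 to 2.04), *B2m* at 1.39 (1.25 to 1.54) and *Gbp7* at 2.24 (0.909 to 6.26). *Npy* was 3.02-fold higher (2.79 to 3.28), and *Apod*, a lipocalin, 3.602-fold (2.599 to 5.09). *Atf3* was at 0.249 (0.204 to 0.302), or 0.463 with keratin UMIs under 0.1%, and *Krt15*, a keratin of bulge cells, at 0.233 with 349, 108 and 104 UMIs. *Krt15* was not run under that limit, and 5, 4 and 6 marker-rich cells had keratin UMIs of at least 0.1%.

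Counts of survival and stem cell genes past 2-fold were small and are given with the shares over all 6079 genes. Of 16 survival and apoptosis genes, 0 were at least 2-fold higher and 1, *Birc5*, which also serves cell division, was at least 2-fold lower in AA than in Neg, and the list ratio was 1.04 (0.946 to 1.15). Of 9 genes associated with melanocyte stem cells none passed 2-fold in AA over Neg, where 2.88% of all genes were higher and 4.1% lower. In AA+Ab, survival genes were at least 2-fold higher in 1 of 16 over AA and in 2 of 16 over Neg, with none lower, and stem cell genes were lower in 1 of 9 over each, with none higher, against 3.95% higher and 4.52% lower of all genes over AA and 0.971% and 2.39% over Neg. Counts this small do not set the lists apart from other genes. Outside these lists, *Ncam1*, an adhesion gene also found in glia, stood at 108.1, 233.1 and 135.1 CPM, a ratio of 2.16 (1.65 to 2.82) in AA over Neg. *Kitl* stood at 170.5, 45.2 and 54.6 CPM in the marker-rich cells, with 95 of the 164 Neg UMIs in 1 cell.

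Marker-rich cells were also found outside the rule. Of all barcodes, 54, 39 and 79 had a selection gene share of at least 1% and at least 5000 UMIs. Of these, 24, 18 and 32 were not kept, with median mitochondrial UMIs of 24.5%, 20.3% and 18.6%, and 4, 3 and 5 were kept but failed the *Ptprc* or Krt condition. With no limit on mitochondrial UMIs the marker-rich share was 0.718%, 0.332% and 0.685%. The lower share in AA thus held without that limit.

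The shallow marker-rich cells, with a median of 630, 2157 and 1291 UMIs, carried a median of 2, 5 and 4 of the 10 further genes. *Trpm1* stood at 1519, 1446 and 2415 CPM in them and *Oca2* at 196, 1001 and 4569 CPM. At least 3 of the 10 were found in 30 of 66, 11 of 13 and 41 of 51 of these cells. Their 7 muscle genes summed to 4901, 259.4 and 156.7 CPM and their keratinocyte genes to 6731, 1816 and 2611 CPM. In Neg the shallow cells thus held more muscle and keratinocyte RNA than in AA or AA+Ab.

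MITF, the product of *Mitf*, binds DNA at the sequence CATGTG and its reverse complement CACATG. Of 27025 genes with a promoter in the mouse reference (GRCm38.p6), 13.8% had a match in the 250 bases before the start. Of the 18 matched genes of the pigment list, 6 had one (33.3%), as did *Dct*, *Tyrp1* and *Tyr*, while *Pmel* and *Mlana* were not matched to the reference. The share was 5.56% (1 of 18) for the MHC class I list and 10.5% (2 of 19) for the cell cycle list. A match describes the sequence and does not show binding in these cells. The windows shown are examples from genes named above as melanocyte genes or as differing between the groups, chosen after the matches were known. Each is 26 bases long and is written on the gene's own strand, with the match in capitals. They lie at chr7:87493518-87493543 (minus strand) for *Tyr*, chr4:80834157-80834182 (plus) for *Tyrp1*, chr14:118052381-118052406 and chr14:118052463-118052488 (minus) for *Dct*, chr7:64153684-64153709 (plus) for *Trpm1*, chr7:56239563-56239588 (plus) for *Oca2*, chr8:123407010-123407035 and chr8:123407021-123407046 (plus) for *Mc1r* and chr3:50443672-50443697 (minus) for *Slc7a11*, with the match starting 21, 46, 150, 232, 141, 186, 62, 51 and 74 bases before the start of the gene.
Tyr: aaaagttagtCATGTGctttgcagaa
Tyrp1: gggagggagtCATGTGctgcctagta
Dct: cacttagggtCATGTGctaacaaaga
Dct: ttggctgggaCACATGagcccaataa
Trpm1: aaatcctcatCATGTGcccaccccaa
Oca2: gagcttgctaCACATGgctggaattt
Mc1r: acatccctggCACATGcccatcatgt
Mc1r: acatgcccatCATGTGgccaccctca
Slc7a11: ggagttttctCATGTGgctgatgcaa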

How the data were processed

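Droplet single-cell RNA sequencing (10x Genomics 3′ v3.1) of dorsal skin gave 1 library per group. The deposited matrices hold unnormalized counts (whole numbers of UMIs). According to the submitters' processing notes, the authors used FastQC 0.11.7 and Cell Ranger 7.2.0 with the mm10 reference. The libraries held 121289374 (Neg), 137290217 (AA) and 141998364 (AA+Ab) UMIs.

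Counts were read in Python 3.11.15 (numpy 2.4.6, scipy 1.17.1, pandas 2.3.3) and plotted with matplotlib 3.10.9. Barcodes were kept at mitochondrial UMIs of at most 10% and at least 200 genes. UMIs were summed over the chosen cells of a library and scaled to CPM of their total. Ratios were computed for genes with at least 60 UMIs over the 3 libraries, with exact conditional 95% intervals from the UMI counts. Levels have exact Poisson and shares exact Clopper-Pearson intervals. Counts past 2-fold are counts of ratios of at least 2 or at most 0.5, without a test, since no group had replicates. A sum at 0 was compared through a floor of 3 counts.

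The 24 gene lists, the selection genes and the rule for members were chosen with earlier results of these data known. Genes named were the selection genes, list members, the 10 highest and 10 lowest ratios of each comparison ranked by the interval bound nearest 1, and the 20 genes highest over the other kept cells, ranked by the lowest of the 3 libraries. Mitochondrial, Gm-numbered and Rik genes were not named. The 10 further lineage genes, the marker-rich limits (1% and 5000 UMIs), the 2000 and 6000 CPM levels and genes shown for their highest cell were chosen after the data were seen. Thinning drew UMIs without replacement with a fixed seed. *Raet1a*, *Raet1b*, *H60a*, *Cxcl11*, *Krt85* and *Asip* were not matched in the files.

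Doublets were left in. As an alternative, barcodes with the highest Scrublet scores (scanpy 1.11.5, 0.8% per 1000 barcodes) were removed. Other alternatives were edgeR 4.0.16 TMM and DESeq2 1.42.0 size factors (R 4.3.3), other minimum counts, limits and marker numbers, the mean of per-cell CPM, and leaving out each gene's highest cell. Scaling without mitochondrial, ribosomal protein and hemoglobin genes was also run. Interval coverage was tested on simulated data.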

Additional observations from a re-analysis of the deposited data

How the results depend on the processing

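The members' share of kept cells depended on the rule. In Neg (6.17%) it was 5.43% with mitochondrial UMIs of at most 5%. In Neg, AA and AA+Ab it was 12.8, 4.51 and 10.8% with at least 2 selection genes, 2.83, 0.46 and 1.82% with at least 4, 4.21, 0.958 and 3.21% with Krt UMIs under 0.5%, 10.6, 1.78 and 7.05% under 2%, 15.6, 2.43 and 11.4% with no Krt limit, and 0.726, 0.366 and 0.934% after thinning to 2000 UMIs. The marker-rich share, whose alternatives were chosen after seeing the data, was 0.231% (Neg) and 0.293% (AA+Ab) with mitochondrial UMIs of at most 5%, and 0.718, 0.332 and 0.685% with no such limit. AA was lowest in each of these sets of 3.

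Counts of genes past 2-fold in members, 1331 (AA over Neg), 1207 (AA+Ab over AA) and 404 (AA+Ab over Neg), were 2261 (AA over Neg) and 986 (AA+Ab over Neg) with the mean of per-cell CPM, 2346 (AA over Neg) with at least 4 selection genes, 739 (AA+Ab over Neg) with at least 30 UMIs, and 804, 684 and 175 with at least 150. In AA+Ab over Neg the split turned, from 167 higher and 237 lower to 542 and 444 with the mean of per-cell CPM and 88 and 87 at 150 UMIs. In marker-rich cells the counts of 424, 515 and 204 were 930, 1016 and 525 at 30 UMIs and 119, 181 and 69 at 150. TMM shifted the median gene of members by -0.1 (AA over Neg) and 0.12 (AA+Ab over AA) in log2, and left 787 higher and 482 lower, and 360 higher and 686 lower. DESeq2 gave 787 and 482, and 366 and 680.

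In marker-rich cells the cell cycle ratio of AA over Neg (0.471) was 0.396 with the mean of per-cell CPM, 0.23 with Krt UMIs under 0.5%, 0.215 under 0.1% and 0.266 without each gene's highest cell. That of AA+Ab over AA (1.91) was 3.45, 3.11 and 3.44 under the last 3 of these, 1.1 without the highest Scrublet scores and 1.76 with a marker share of at least 2%. The MHC class I ratio of AA+Ab over AA (0.434) was 0.469 with the mean of per-cell CPM, 0.392 with Krt UMIs under 0.1%, 0.475 without each gene's highest cell and 0.488 with no mitochondrial limit, where that of AA over Neg (2.44) was 2.28. Among ratios past 2-fold the direction reversed for *Krt17* in AA over Neg at 0.822 (Krt UMIs under 0.5%) and in AA+Ab over AA at 1.42 (under 0.1%), *Dcn* in AA+Ab over Neg at 1.21 (under 0.1%) and 1.53 (marker share at least 2%) and in AA over Neg at 1.16 (marker share at least 2%), and *Cald1* in AA+Ab over Neg at 1.18 (marker share at least 0.5%). The limits of 0.1% for Krt, the marker share limits, leaving out the highest cell and lifting the mitochondrial limit were chosen after seeing the data. For all of these the cause was not tested.

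Over the alternatives run for these ratios the MHC class I ratio of AA over Neg lay between 2.28 and 2.54, the interferon ratio between 2.24 and 2.65, and *H2-K1* between 4.91 and 14.3, while *Top2a* ranged from 0.00855 to 0.674. Of the remaining values, 124 for shares, counts and list ratios stayed within their interval or within 1.5 times, and of those for single genes and further lists 1347 did and 385 moved. Ratios not past 2-fold lay on the other side of 1 under an alternative in 58 instances, such as *Mki67* in AA+Ab over AA (1.18) at 0.257 and *Atf3* in AA over Neg (0.621) at 1.2. No paired analysis was possible because each group is 1 library. With 26, 18 and 42 marker-rich cells, single cells carry many of a gene's UMIs, and genes under 60 UMIs could not be compared.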
